A study of Spirodela polyrhiza with 12 samples.

Results

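The step from middle to high temperature was described in the giant duckweed, Spirodela polyrhiza, a small plant that floats on fresh water, from RNA sequencing of leaf samples. The comparison set the 4 libraries labelled high temperature against the 4 labelled middle temperature, which are 8 of the 12 libraries of the series. The other 4 libraries, labelled indoor temperature, were the controls and give the reference level beside each result. Levels were deposited as FPKM, fragments scaled to transcript length and library depth. Genes entered when their FPKM was at least 1 in at least 4 of the 12 libraries, which kept 15209 of 18099 genes. At the edge of this rule, 289 genes reached that level in exactly 4 libraries, with a median mean FPKM of 0.848, and 270 genes reached it in exactly 3, with a median of 0.718. Of the genes kept, 24 reached the level at high temperature alone and 37 at middle temperature alone. Such genes had to differ between groups to be kept.

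All samples carried the same tissue label, leaf, and the labels name no strain, no genetic change and no other agent. The sources used here state neither the temperatures in degrees nor the length of exposure. The labels do not say whether replicates were grown as separate cultures. All p-values therefore refer to the spread among these libraries, and that spread may be technical. The files do not pair gene identifiers with gene names, so the leaf label was not checked against marker genes, and gene families, the aquaporins of the series title included, were not analysed here. At most 4 identifiers are printed, and the results are otherwise given for groups of genes.

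In plants, heat that unfolds proteins releases heat shock transcription factors, which switch on genes for molecular chaperones such as the small heat shock proteins and the larger heat shock protein families. Messages of many growth and housekeeping genes decline at the same time. A strong induction of few genes also changes what a sequencing library can show, because each library is a fixed budget of fragments that the messages share.

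High-temperature libraries were as deep as middle-temperature libraries but far more concentrated. The total estimated count was 32711880, 25575920, 26045672 and 31527175 in high replicates 1 to 4, and 32467069, 29796225, 24942682 and 29220592 in middle replicates 1 to 4. The totals of the groups did not differ detectably (p = 0.971, two-sided exact permutation test with 4 libraries a group). The 10 most abundant genes of a library held 17.1%, 15.3%, 18.2% and 19.8% of the counts at high temperature and 4.61%, 3.75%, 4.19% and 4.47% at middle temperature. Every high library was thus above every middle library, by 13.3 percentage points on average. To reach 50% of the counts, the most abundant genes had to be summed down to rank 272, 304, 198 and 169 at high temperature and to rank 901, 1182, 949 and 1066 at middle temperature. Far fewer genes filled that share at high temperature. Genes with an FPKM of at least 1 numbered 13459 to 14423 at high and 14829 to 15109 at middle temperature, again without overlap. Each of these last 3 measures gave p = 0.0286 in a two-sided exact permutation test, the smallest that 4 against 4 libraries allow, and 0.0381 after Benjamini-Hochberg adjustment over the 4 measures. All 3 depend on how the counts of a library are shared among genes, so they are not independent results. At indoor temperature the 10 most abundant genes held 4.51% to 5.39% of the counts and 857 to 1005 genes held 50%, near the middle-temperature values. Genes with an FPKM of at least 1 numbered 14154 to 14687 there, below every middle library and overlapping the high libraries.

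**Figure D1:**
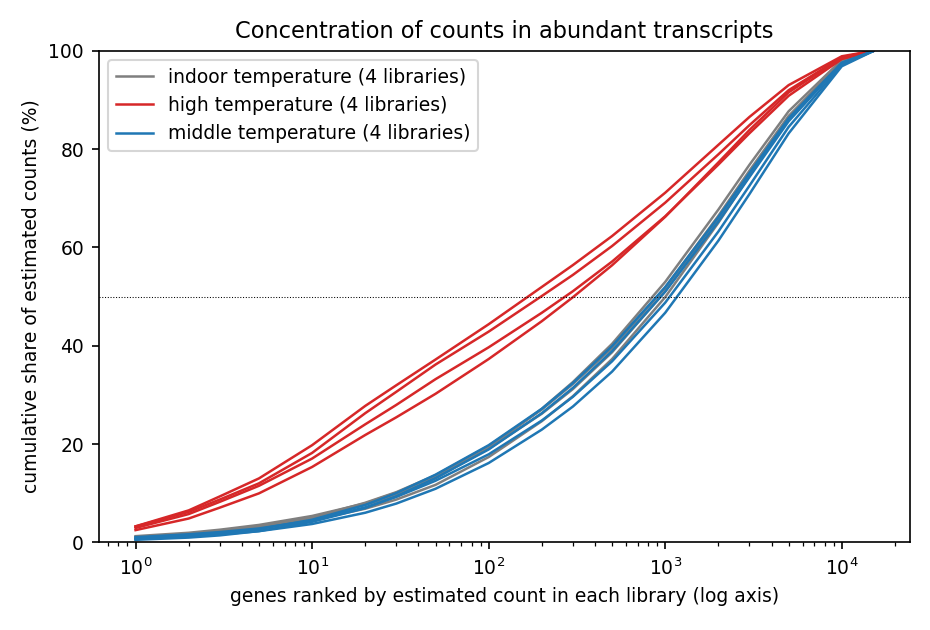
Cumulative share of estimated counts (%) against genes ranked by count within each library (log axis), 1 line per library, coloured by temperature group, with a dotted line at 50%. The 4 high-temperature lines cross 50% at 169 to 304 genes, left of the 4 middle-temperature lines, which cross it at 901 to 1182 genes.

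The counts that high temperature gained went to few genes and were lost by many. Over the genes tested, 1718 had a larger mean share of the counts at high than at middle temperature, together 33.4 percentage points, and 13491 had a smaller one. The 10 genes with the largest gain took 16.2 points and the 100 with the largest gain took 30.1 points. Of the gain, 50% lay in 11 genes. Of the loss, 50% was spread over 1059 genes, and the 10 largest losses together came to a change of -1.63 points. These sums rank genes by the difference itself and are a description, with no test. Shares add up to a fixed total, so gains in some genes lower other shares even where those messages did not fall.

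The named genes were chosen among called genes whose 4 high and 4 middle libraries did not overlap in FPKM or in scaled counts. Their separation is thus set by the choice. Of these genes, Spipo1G0113800.v2 made the largest gain in share of counts. Its FPKM was 10478, 9171, 10833 and 11985 in high replicates 1 to 4 and 904, 308, 566 and 568 in middle replicates 1 to 4. The 4 high libraries all lay far above the 4 middle libraries, and middle replicate 2 was the lowest of the 8. At indoor temperature it stood at 85.0 ± 34.6 (SD, n = 4), below every middle library. It held 2.88% ± 0.31 of all counts at high temperature against 0.160% ± 0.067 at middle temperature (SD, n = 4), and moved from rank 44 to rank 2 in abundance. Its log2 fold change was 4.97 ± 0.47 (SE; edgeR, Benjamini-Hochberg adjusted p = 1.05e-05).

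Spipo29G0023400.v2 made the next largest gain. Its FPKM was 11629, 9258, 12739 and 12973 in high replicates 1 to 4 and 1757, 503, 1105 and 1144 in middle replicates 1 to 4. The groups did not overlap, and in both genes middle replicate 1 was the highest and middle replicate 2 the lowest of the middle libraries. It was already the gene of rank 11 at middle temperature, from rank 1231 at indoor temperature, and became rank 1 at high temperature with 2.96% ± 0.43 of the counts (SD, n = 4). The log2 fold change from middle to high temperature was 4.16 ± 0.50 (SE; edgeR, Benjamini-Hochberg adjusted p = 6.88e-05). These fold changes use TMM, a scaling explained with the counts of called genes. Scaled by library totals they were 4.17 and 3.37 on the log2 scale.

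The largest losses among the called genes without overlap were of a different size. Spipo23G0004200.v2 had an FPKM of 687, 612, 953 and 632 in high replicates 1 to 4 and 1922, 2153, 2181 and 1893 in middle replicates 1 to 4. All 4 high libraries were below all 4 middle libraries, with high replicate 3 nearest to them. At indoor temperature it was at 967 ± 137 (SD, n = 4), so the middle group held the highest level of the 3 groups. In CPM, counts scaled by TMM to a common library size, the high libraries were at 1140 ± 280 (SD, n = 4). They overlapped the indoor libraries, at 947 ± 139, and had the higher mean. The log2 fold change was -0.67 ± 0.21 (SE; edgeR, Benjamini-Hochberg adjusted p = 0.0263). The adjusted p was close to the limit, and the call did not hold without high replicate 1, 2 or 4 or without middle replicate 3, with adjusted p-values (edgeR, Benjamini-Hochberg) of 0.0582, 0.0745, 0.0637 and 0.0653, and the direction was kept.

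Spipo29G0015000.v2 had an FPKM of 231, 290, 285 and 220 in high replicates 1 to 4 and 796, 681, 753 and 656 in middle replicates 1 to 4. The groups did not overlap, and the indoor level of 387 ± 27.2 (SD, n = 4) lay between them in FPKM. In TMM-scaled CPM the indoor libraries, at 615 ± 57.0, overlapped the high libraries, at 653 ± 92.5 (SD, n = 4). Its log2 fold change was -0.69 ± 0.18 (SE; edgeR, Benjamini-Hochberg adjusted p = 0.0131). For both genes the fall was larger with library totals, at -1.50 on the log2 scale for each. The difference between deposited FPKM and the fitted fold changes comes from that scaling.

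**Figure D2:**
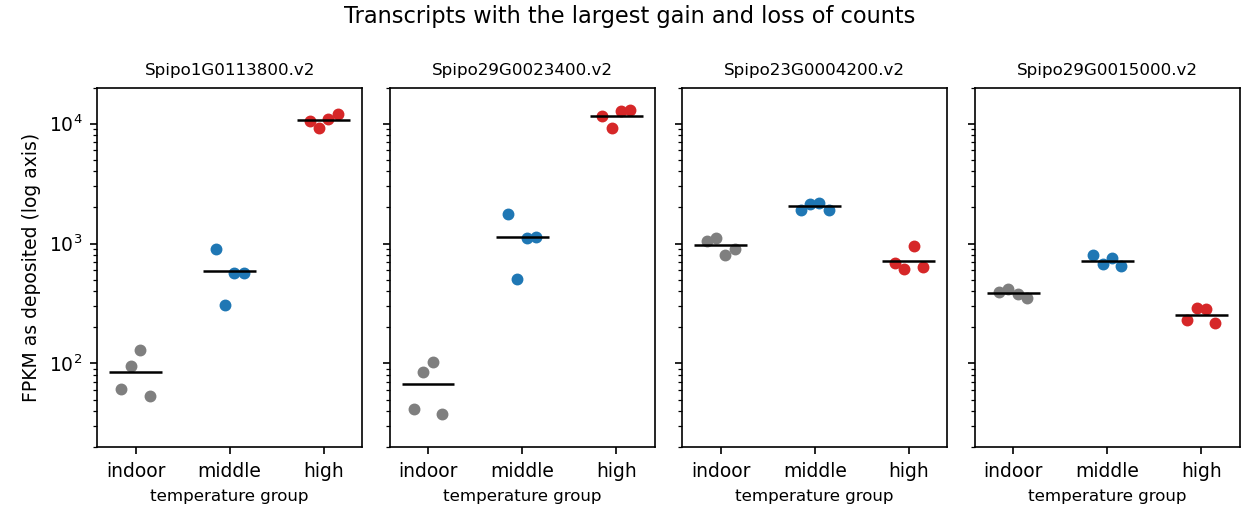
FPKM as deposited (log axis) of the 2 called genes with the largest gain and the 2 with the largest loss in share of counts, 1 point per library (4 per group), with bars at group means. The genes were picked among called genes with no overlap between high and middle libraries. The genes that gained climb from indoor through middle to high temperature, and those that lost counts are highest at middle temperature.

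Of the 15209 genes tested, 4616 were called between high and middle temperature (quasi-likelihood test of edgeR, adjusted p under 0.05), which is 30.4% of the genes. Among them, 2417 were higher at high temperature (15.9%) and 2199 lower (14.5%). With TMM scaling large rises outnumbered large falls: 279 genes were called higher by 4-fold or more (1.83%) and 148 lower by as much (0.973%). At 8-fold or more the counts were 113 and 31. With library totals the balance at 4-fold turned, with 129 genes higher and 927 lower, and at 8-fold the counts were 68 higher and 127 lower. At 2-fold the sides were even with TMM, with 1008 genes higher (6.63%) and 1016 lower (6.68%), but not with library totals, with 317 and 5551. The median log2 fold change was 0.87 among the genes called higher, with 10% of them above 2.15, and -0.96 among those called lower, with 10% of them under -1.79. In 2 of the genes with such a rise of 4-fold or more and 8 of those with such a fall, every library of the lower group had a count of 0, where the fitted fold is no bound. Without high replicate 1 the genes called at least 4-fold lower numbered 237 in place of 148.

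The side on which a gene fell depended on how libraries were scaled, and the genes called in the same direction under both scalings were counted for that reason. TMM sets a factor for each library such that most genes do not change. The factors were 0.630 to 0.767 at high temperature and 1.14 to 1.39 at middle temperature. With library totals alone the median log2 fold change over tested genes was -0.82 in place of 0.0033. On that scale 505 genes were called higher (3.32%) and 9562 lower (62.9%). With upper-quartile factors the median was -0.12 and the calls 1782 higher and 2849 lower. All 505 genes called higher with library totals were also called higher with TMM, and all 2199 genes called lower with TMM were also called lower with library totals. A further 1730 genes called higher with TMM were not called with library totals, 182 were called higher with TMM and lower with library totals, and 7181 genes not called with TMM were called lower with library totals. Of the 279 genes called at least 4-fold higher with TMM, 262 were called higher by any fold with library totals, as were all 113 genes at least 8-fold higher. The size of the rise was smaller on that scale. The files hold no spiked-in standard that would set an absolute scale.

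**Figure D3:**
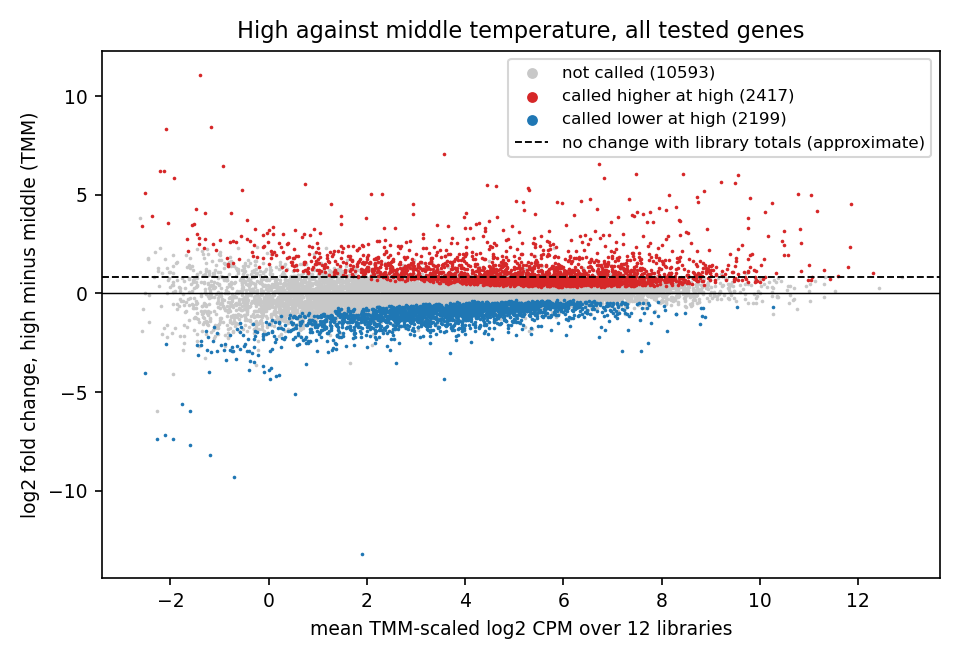
Log2 fold change, high minus middle (TMM-scaled, vertical), against mean TMM-scaled log2 CPM over the 12 libraries (horizontal), 1 point per tested gene: 2417 called higher in red, 2199 called lower in blue, the others in grey. The dashed line shows where a gene with an equal share of library totals would lie; all called falls are under it, and the largest rises are above it.

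Classes of genes by their change between high and middle temperature held very different parts of the libraries. The classes were made from that contrast, so their shares are a description with no test. The 279 genes called at least 4-fold higher held 32.4%, 28.5%, 36.3% and 36.7% of the counts in high replicates 1 to 4 and 5.51%, 2.90%, 3.89% and 4.24% in middle replicates 1 to 4. At indoor temperature they held 1.35% to 2.17%, so these genes had a larger share at middle temperature than in any control and a much larger one at high temperature. Their median level in CPM, counts scaled by TMM to a common library size, was 7.05 in controls, 12.7 at middle and 108 at high temperature. The 729 genes called 2- to 4-fold higher followed another course, with a median CPM of 23.0 in controls, 18.5 at middle and 48.8 at high temperature. For the 1409 genes called higher by less than 2-fold the medians were 57.3, 45.2 and 68.8 in the same order, with the middle group again the lowest. Without TMM that last order turned: these 1409 genes held 17.2%, 14.4% and 13.1% of the counts, and their median FPKM was 54.7, 45.6 and 40.4, lowest at high temperature.

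In each class called lower at high temperature the median level was highest at middle temperature. The 148 genes called at least 4-fold lower had a median CPM of 2.35 in controls, 4.17 at middle and 0.655 at high temperature. They held 0.351% to 0.408% of the counts in the middle libraries and 0.0259% to 0.0475% in the high libraries. The 868 genes called 2- to 4-fold lower had medians of 7.82 in controls, 11.7 at middle and 4.65 at high temperature. The 1183 genes called lower by less than 2-fold had medians of 21.0, 26.0 and 15.8 in that order. The middle libraries enter both the step from indoor and the step to high temperature, so a middle group that is high or low by chance would appear in both, and these medians stand side by side without a test. The 10593 genes not called went from 63.8% ± 0.71 of the counts at middle temperature to 38.9% ± 3.30 at high temperature (SD, n = 4), while their median TMM-scaled CPM was 15.7 and 15.5.

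**Figure D4:**
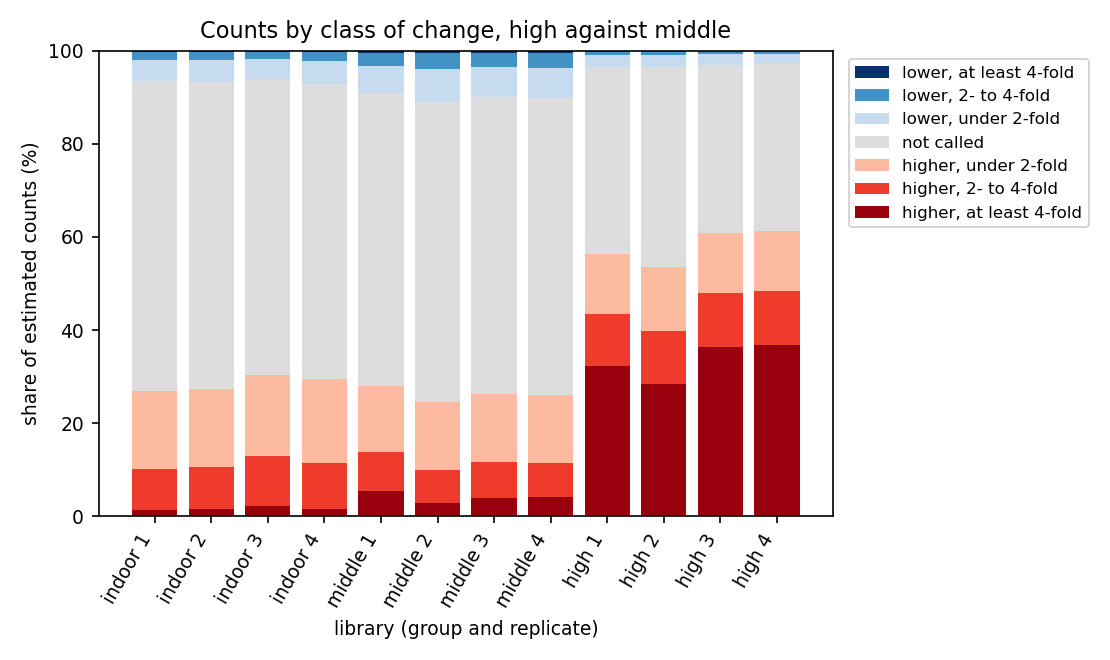
Share of estimated counts (%, stacked bars from 0) in each of the 12 libraries held by the tested genes of 7 classes of change between high and middle temperature. The class called at least 4-fold higher takes 28.5% to 36.7% of the high libraries and 2.90% to 5.51% of the middle libraries.

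The most abundant genes were partly exchanged between middle and high temperature. Of the 10 genes that led the middle libraries by mean share, 1 was among the 10 that led the high libraries. Of the 100 that led the middle libraries, 56 were also among the 100 highest at high temperature. These 100 held 17.9% ± 1.62 of the counts at middle and 29.6% ± 1.43 at high temperature (SD, n = 4). By TMM-scaled fits 37 of them were called higher and 3 lower. With library totals 17 were called higher and 35 lower, so the balance turned with the scaling. The 100 genes that led the high libraries by mean share held 40.7% ± 3.28 there, 14.0% ± 1.68 at middle and 11.6% ± 0.59 at indoor temperature, and 75 of them were called higher and 0 lower with TMM (58 higher and 8 lower with library totals). Both sets were chosen on levels that enter the contrast, so the counts are a description.

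Abundant and scarce transcripts moved in opposite directions relative to each other. The genes were divided into quintiles by their mean level, in TMM-scaled log2 CPM, over all 12 libraries. The high and middle libraries enter that mean, so a gene's own change can move it between quintiles, and the shares are a description. In the quintile of highest level 31.4% of 3041 genes were called higher and 5.46% lower, and in the quintile of lowest level 6.74% of 3042 genes were called higher and 12.5% lower, against 15.9% and 14.5% over all genes tested. Between them the share called higher went from 9.07% through 13.0% to 19.3%, and the share called lower was largest in the second-lowest quintile at 21.1%. The median log2 fold change went from -0.26 in the lowest quintile to 0.29 in the highest. Low counts limit how many genes can be called in the lowest quintile, but the medians do not rest on calls. With library totals 57.5% of the highest and 45.6% of the lowest quintile were called lower. The medians were then -1.08 in the lowest and -0.53 in the highest quintile, so both were lower at high temperature, the scarce transcripts more so.

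The relation to level was seen in single libraries, where it does not depend on the scaling between them. In each library the median log2 level of the lowest quintile, each gene taken relative to its mean over the 12 libraries, was subtracted from that of the highest quintile. The quintiles were the same ones, set with these libraries. The difference was -0.18, 0.27, 0.17 and 0.36 in high replicates 1 to 4 and -0.19, -0.60, -0.33 and -0.45 in middle replicates 1 to 4. The groups did not overlap, but high replicate 1 and middle replicate 1 were nearly equal. At indoor temperature it was -0.10 to 0.34, within the range of the high libraries and above every middle library.

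Relative transcript length also went with the direction of change. It was read from the ratio of deposited count to deposited FPKM, which grows with the length of the transcript, and is given relative to the median tested gene. In the quintile of shortest transcripts 17.2% of genes were called higher and 7.33% lower, and in the quintile of longest transcripts 14.5% were called higher and 20.2% lower. With library totals 48.9% of the shortest and 72.9% of the longest quintile were called lower, with median log2 fold changes of -0.70 and -0.91. Within the quintiles by level the split varied with the level. Level here is CPM, which grows with transcript length, so at like CPM short genes had a higher FPKM than long genes. Calls also varied with FPKM. In the highest quintile by mean log2(FPKM + 1) 34.6% of genes were called higher and 4.08% lower, against 7.20% and 15.4% in the lowest. The part of FPKM level in the split by length was not tested. Within the second-highest quintile by level 32.8% of the short genes were called higher and 3.55% lower, against 12.3% and 22.2% of the long genes. Within the middle quintile by level the median log2 fold change was 0.17 for the short and -0.38 for the long genes. In the lowest quintile by level the medians were -0.13 and -0.16, close to each other, and in the highest they were 0.40 and 0.17. In the highest quintile 2.20% of the short and 7.43% of the long genes were called lower.

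The genes called at least 4-fold higher had a median relative length of 0.729 and those called at least 4-fold lower one of 0.737, both shorter than the median gene. The 868 genes called 2- to 4-fold lower had a median of 1.17 and the 1183 called lower by less than 2-fold one of 1.31. Library by library the difference between long and short transcripts was less clear. The median log2 level of the longest quintile minus that of the shortest was -0.10, -0.06, -0.24 and -0.18 in high replicates 1 to 4 and 0.10, -0.08, 0.07 and 0.19 in middle replicates 1 to 4. Middle replicate 2 lay among the high libraries, so the groups overlapped. RNA integrity is given in the labels only as a minimum for all samples, and its part in this relation was not tested.

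**Figure D5:**
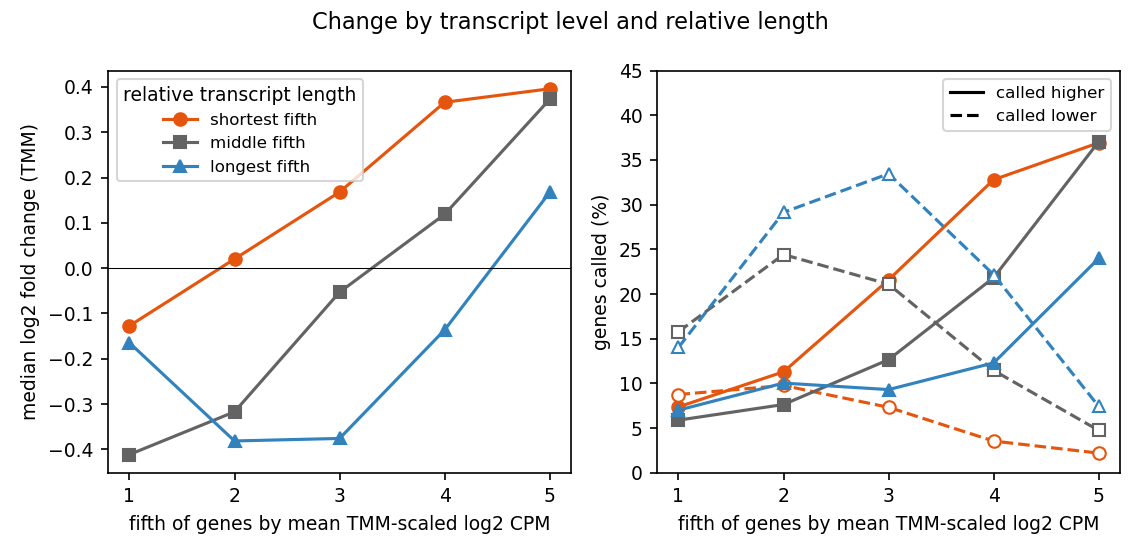
Left, median log2 fold change between high and middle temperature (TMM) for genes of the shortest, middle and longest length quintile, by quintile of mean level (1 lowest, 5 highest). Right, the percentage of the same genes called higher (solid lines, filled points) and lower (dashed lines, open points). Short genes lie at or above long genes in each quintile on the left.

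By deposited FPKM, few genes were detected at high but not at middle temperature, and more had the reverse pattern. In the whole table of 18099 genes, 26 had an FPKM of at least 1 in all 4 high libraries and in no middle library, and 250 had it in all 4 middle libraries and in no high library. These counts use deposited FPKM, which was lower in the high libraries for most genes. The median FPKM of the tested genes was 8.06 to 10.4 in the high libraries and 15.9 to 18.8 in the middle libraries. With TMM scaling 24 of the 26 genes were called, but only 137 of the 250, against 30.4% of all genes tested. Both sets were picked on the contrast, so these counts are a description. The 26 genes had a median mean FPKM of 2.01 at high and 0.258 at middle temperature, and 24 of them were under 1 in every indoor library as well. The 250 genes had a median of 2.26 at middle and 0.491 at high temperature, and 87 of them reached 1 in every indoor library. A count of 0 in all libraries of 1 group with more than 12 counts in every library of the other was rarer still. It was found for 5 genes seen at high temperature and 6 seen at middle temperature, so the sides were then nearly even.

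Genes beside a neighbouring identifier that was called shared its call more often than genes over all, although most did not share it. Each tested gene was paired with the tested gene of nearest identifier number under the same prefix. Whether that numbering follows the genome is not stated in the sources used here. Among genes whose neighbour was called higher, 29.7% were called higher themselves, against 15.9% over all genes. Among those whose neighbour was called lower, 20.8% were called lower, against 14.5%. A call higher beside a neighbour called lower was scarcer than the overall share, at 10.4%. For large rises the contrast with all genes was wider. Of the genes whose neighbour was called at least 4-fold higher, 23.4% were called at least 4-fold higher themselves, against 1.83% over all genes. For falls of at least 4-fold the shares were 10.8% and 0.973%.

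Runs of consecutive tested identifiers made up part of the strongest response. Of the 279 genes called at least 4-fold higher, 105 stood in 44 runs of 2 or more such genes, and the longest run held 8. Of the 148 called at least 4-fold lower, 22 stood in 9 runs, the longest of 5. Near-identical copies can share reads in counting, and copies with neighbouring numbers would then move together. The files do not show which neighbours are copies, and the part of shared reads in these runs was not tested. Over the 33 identifier prefixes, 11.9% to 26.6% of genes were called higher and 7.20% to 17.2% lower.

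The libraries of high temperature varied more among themselves than those of middle temperature. The biological coefficient of variation estimated within a group was 31.4% for high, 25.6% for middle and 33.2% for indoor libraries. The standard deviation of log2 levels was larger at high than at middle temperature for 10008 genes, which is 65.8% of those tested. Most genes also had lower levels there, with a median FPKM of 8.06 to 10.4 in high and 15.9 to 18.8 in middle libraries. The part of lower counts in this spread was not tested. Across genes, which do not count as independent replicates, Spearman correlations were 0.962 to 0.975 among high libraries, 0.968 to 0.980 among middle libraries and 0.907 to 0.954 across the groups. In a principal component analysis of the 8 libraries the first component held 53.5% of the variance and separated the groups. High replicate 1 at 33.2 and middle replicate 1 at -35.2 were nearest to each other, and high replicate 4 at 72.1 and middle replicate 2 at -68.3 were farthest apart. The same order of libraries appeared in the genes called lower: their median log2 level relative to the middle mean was -0.80, -0.92, -0.98 and -1.13 in high replicates 1 to 4. In the genes called at least 4-fold higher, middle replicate 1 stood 0.53 above the middle mean and middle replicate 2 stood at -0.38, while the high libraries ran from 2.62 to 3.03. No library of either group crossed into the range of the other in these medians, which the choice of genes by the contrast makes nearly certain.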

How the data were processed

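Messenger RNA was sequenced from 12 leaf samples in 3 temperature groups. Per the file headers the deposited table gives an FPKM value and a count per gene and library. Tools listed in the submitters' processing notes, with no role given, are StringTie 1.3.4d, HISAT2 2.0.4, UMI-tools, cutadapt 1.9, edgeR and DESeq2. The sources used here state no genome build, annotation or use of strand in counting, so overlapping genes and near-identical copies are uncertain. Within a gene the deposited counts were nearly proportional to FPKM after allowing for the depth of each library. They were treated as estimated counts and used as deposited, already whole. The floor for a gene at 0 was set to 12 counts in each library, as 3 fragments of the commonest count, 4. It covers counting error only.

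All 12 libraries entered a fit in edgeR 4.0.16 (R 4.3.3; quasi-likelihood test, robust, TMM, a term per group), with Benjamini-Hochberg adjustment over 15209 genes. SEs were computed as the fold change over the root of F. On simulated data for this comparison, with 15209 genes, the test found 2% of the 50 genes given a 1.5-fold change. It found 50% of the 50 given a 2-fold change, 80% of the 50 given a 4-fold change and 94% of the 50 given an 8-fold change. It also called 9 genes that had none. No other genes were changed in the simulation, whereas 4616 genes were called in the data. The Benjamini-Hochberg adjustment depends on how many genes change, so these recoveries need not hold for the real comparison. Recovery under a difference in TMM factors like that between high and middle libraries was not tested. Library measures used exact permutation tests in scipy 1.17.1. Between replicates, counts differed by more than sampling noise (chi-square per degree of freedom 52.5 to 192). The named genes are the 2 called genes with the largest gain and the 2 with the largest loss in mean share of counts, with no overlap between groups in FPKM or TMM-scaled counts. Members, lists and tests were chosen with earlier results of these data known. Alternatives included limma 3.58.1 on log2(FPKM + 1) and DESeq2 1.42.0.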

Additional observations from a re-analysis of the deposited data

How the results depend on the processing

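Over 24 alternatives, 91 of 96 values of the named genes were unchanged in direction and call, and 0 changed sign. In the remaining 5, Spipo23G0004200.v2 missed the threshold by the adjusted p of edgeR: in 4 fits that left out a library, up to 0.0745, and with a replicate block, at 0.0529. Of 144 counts of called genes, 123 stayed within 1.5 times the reported count. The counts of genes called, higher, lower, changed by 2-fold or more, higher by 4-fold or more and lower by 4-fold or more were 4616, 2417, 2199, 2024, 279 and 148 as reported. They were 10067, 505, 9562, 5868, 129 and 927 with library totals. With limma they were 10331, 536, 9795, 4748, 103 and 235 on log2(FPKM + 1), and 10262, 513, 9749, 5974, 135 and 926 with a pseudocount of 0.1. After quantile normalization limma gave 182 genes higher and 38 lower by 4-fold or more. Library totals and limma on deposited FPKM share the lack of a factor for library composition. For quantile normalization the cause was not tested. DESeq2 called 5393 genes.

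With library totals, genes called higher and lower numbered 88 and 1386 in the quintile of lowest level (205 and 380 as reported), 192 and 1748 in that of highest level (954 and 166), 134 and 1488 in the shortest (522 and 223) and 89 and 2216 in the longest quintile (441 and 614). The share called beside a neighbour of the same call was then 23.4% for higher and 67.7% for lower, against 3.32% and 62.9% over all genes. With an FPKM limit of 0.5 the genes present at middle temperature only numbered 139 in place of 250.

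When libraries were left out one at a time, 3275 to 4743 genes were called, 1701 to 2445 higher, 1523 to 2510 lower, 1612 to 2302 changed by 2-fold or more, 251 to 327 higher by 4-fold or more and 115 to 237 lower by 4-fold or more. The difference in the share of the 10 most abundant genes was then 12.6 to 14.1 percentage points, that in genes holding 50% of counts -829.9 to -736.3, and that in genes with an FPKM of at least 1 from -1311.5 to -990.2. With 4 against 3 libraries the smallest exact p is 0.0571, so these tests could not pass the threshold. The difference in total count is within the spread of the libraries in each of these. The deviations of same-numbered high and middle libraries had Pearson's r from -0.25 to -0.01 across genes. For libraries of other numbers it was -0.20 to 0.28. The labels state no pairing, and such values from 4 libraries a group cannot decide whether the numbers pair them. A fit in edgeR with a replicate block called 3957 genes.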
